A study of Mus musculus with 9 samples.

Results

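The genes described here are 10 markers of adipocytes, the lipid-storing cells of fat tissue: Adipoq, Lep, Retn, Cfd, Plin1, Plin4, Cidec, Fabp4, Lpl and Pparg. They are 10 of the 21959 genes in a table of RNA sequencing counts from mouse colon, and all 10 passed the filter on low counts that left 14921 genes for testing. They were chosen from measured values, because they all moved in the same direction in the group given carbon dots, so their values in that group are given as a description, with no test. Samples were 9 libraries of colon from wild-type (WT) mice in 3 groups of 3. The CDs group received dextran sulfate sodium (DSS), a sulfated polymer that injures the lining of the colon when mice take it up, together with carbon dots made from lotus node charcoal. The Model group received DSS alone, and the Blank group received no treatment. The sources used here give no age, sex, dose, time or way of dissecting the pieces of colon. The replicates are described by the submitters as biological.

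Adipocytes hold triglyceride in a single large droplet coated by proteins of the perilipin and CIDE families. They take up fatty acids that lipoprotein lipase frees from blood lipoproteins, and they release hormones called adipokines. The nuclear receptor PPARG drives their differentiation together with factors of the C/EBP family. In the intestine, fat lies in the mesentery, the sheet of tissue along which vessels reach the gut wall, and small fat depots also lie along the wall itself.

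In this bulk tissue 7 of the 10 markers rose with DSS, where 24.5% of all genes tested rose and 44.1% were called in either direction. In Model colon over Blank colon the 7 were Adipoq, Lep, Cfd, Cidec, Lpl, Plin4 and Fabp4, with fold changes of 3.71-fold for Fabp4 to 8.31-fold for Adipoq in the 6 other than Lep. Lep passed the filter on low counts only through the Model libraries and CDs 1, so its call is no support and 6 of the 7 remain without it. The members were picked on a contrast with the same Model libraries, where high Model values favour both the choice and a higher call. The count of higher calls is therefore no independent support. Without Model 1, Model 3 and CDs 1, which held pancreatic transcripts, Model 2 alone stands for Model. The log2 fold change of Adipoq was then 0.79, against 3.06 with all libraries, and that of Fabp4 was 2.01, against 1.89. Without Blank 2 and Blank 3, which held a prostate transcript, Blank 1 alone stands for Blank, and these values were 4.48 and 2.12. Fewer members were called higher in both fits, where a single library carries a group. With all libraries, Pparg fell, to 0.525-fold of its Blank level, as 19.6% of all genes tested fell, and the tests of Plin1 and Retn missed the threshold. In CDs colon all 10 fitted fold changes over Model colon were negative, against 44.8% of all genes tested. This direction is what the genes were picked for, so nothing is read from that share. The values ran from -2.75 on the log2 scale for Lep to -0.04 for Pparg. In a piece of tissue, fewer cells of a type and less RNA per cell cannot be told apart.

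The label of the group of genes was checked against the data. Adipoq, Lep, Retn and Plin1, which adipocytes largely supply in mice, were found in all groups, and only Lep was without a read in a library, Blank 1. Fabp4, Lpl, Plin4, Cidec, Cfd and Pparg are also made by other cells, such as endothelium, macrophages, muscle, liver and epithelium. The labels name the tissue colon and mention neither mesentery nor fat, so a mesenteric origin of the transcripts is not shown by the labels or by these values.

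To show the regulatory sequence next to genes that moved together, the RefSeq promoter windows of the members were searched on both strands for binding motifs of the adipocyte regulators. Windows span the 250 bases before the annotated start of transcription, in build GRCm38.p6, and 8 of the 10 members had at least 1, with 11 windows in all. Fabp4 and Lpl were not matched in the promoter table. The C/EBP motif TTGCNNAA, with N any base, was present in windows of 4 of these 8 members. Among all genes with windows it was present for 2930 of 27025, and in 9.56% of all 32851 windows of this length. These 4 windows are printed 5′ to 3′ on the gene's own strand, with the C/EBP motif in capitals, also where it lies on the opposite strand and reads in reverse complement.
Lep, chr6:29059971-29060220, plus strand: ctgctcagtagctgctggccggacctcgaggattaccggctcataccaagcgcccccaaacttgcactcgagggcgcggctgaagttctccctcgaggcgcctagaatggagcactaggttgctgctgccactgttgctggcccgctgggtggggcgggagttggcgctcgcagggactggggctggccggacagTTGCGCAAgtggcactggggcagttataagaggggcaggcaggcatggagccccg
Cidec, chr6:113434765-113435014, minus strand: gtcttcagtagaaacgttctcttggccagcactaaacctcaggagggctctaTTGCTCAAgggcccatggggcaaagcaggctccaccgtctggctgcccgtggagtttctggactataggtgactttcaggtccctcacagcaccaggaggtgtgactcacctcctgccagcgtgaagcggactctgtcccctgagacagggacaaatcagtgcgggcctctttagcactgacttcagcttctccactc
Plin1, chr7:79732777-79733026, minus strand: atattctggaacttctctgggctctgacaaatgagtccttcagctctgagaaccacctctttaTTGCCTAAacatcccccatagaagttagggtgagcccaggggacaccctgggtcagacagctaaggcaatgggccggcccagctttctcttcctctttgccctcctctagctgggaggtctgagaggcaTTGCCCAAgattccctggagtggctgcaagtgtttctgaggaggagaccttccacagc
Pparg, chr6:115421816-115422065, plus strand: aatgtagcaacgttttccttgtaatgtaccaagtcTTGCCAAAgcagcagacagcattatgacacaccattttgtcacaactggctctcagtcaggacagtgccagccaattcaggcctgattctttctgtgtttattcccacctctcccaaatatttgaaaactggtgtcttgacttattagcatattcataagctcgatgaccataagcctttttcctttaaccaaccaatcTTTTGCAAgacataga
The match in Lep lies 55 bases before the start and reads the same on both strands. Cidec has its match 198 bases before the start, Plin1 has matches at 187 and 58 bases, and Pparg, in one of its windows, has matches at 215 bases and, on the opposite strand, at 16 bases. The motif to which PPARG binds with its partner RXR is a direct repeat, AGGTCANAGGTCA. It was found in 0 of the 8 members' windows, against 0.0335% of all windows, and its looser form AGGNCANAGGNCA was also found in 0, against 0.338%. A single AGGTCA unit of the repeat was in windows of 1 of the 8 members, Pparg itself. It was present for 4260 of all 27025 genes with windows, and in 14% of all windows. A match is a run of letters in the window and not a measured binding site, and the absence of one says nothing of sequence outside the window.

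The libraries held 13868864 to 19940300 reads in genes. Levels are given as CPM, the counts per 1e+06 reads of the library after scaling by the TMM method, and fold changes are log2 ratios of group levels from edgeR with their standard error (SE). A gene is called where its adjusted p was under 0.05 in the edgeR quasi-likelihood test over all 14921 genes. In CDs colon over Model colon 0 genes (0%) were called by edgeR or limma, 788 (5.28%) had an unadjusted p under 0.05, and DESeq2 called 50. Several libraries held transcripts of other organs. Of 12 genes of pancreatic acinar cells, all were read in Model 1, Model 3 and CDs 1, with summed levels of 8194, 69645 and 325 CPM, against 3.94 to 22.4 CPM in the other 6 libraries. Pbsn, a secreted protein of the prostate, had 895 and 113 CPM in Blank 2 and Blank 3, against 0 to 0.237 CPM in the other 7 libraries. It belongs to a list of 8 prostate and seminal vesicle genes. Spink1 of that list ran the other way, with 81.3, 98.0 and 119 CPM in Blank and 148 to 286 CPM in the DSS libraries. The list summed to 1626 CPM in Blank 2 and 292 CPM in Blank 3, against 83.5 to 287 CPM in the other 7 libraries. Blank 3 is thus set apart by Pbsn and hardly by the sum.

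Adiponectin, encoded by Adipoq (ENSMUSG00000022878, chromosome 16 from 22965286 to 22976778 on the plus strand in the deposited table, which names no build), is the most adipocyte-restricted of the secreted products. Its level was 4.16, 4.13 and 1.84 CPM in CDs libraries 1 to 3, 29.5, 3.32 and 15.3 CPM in Model libraries, and 0.707, 2.20 and 2.88 CPM in Blank libraries. Model 1 and Model 3 stood far above all others, whereas Model 2 lay between the CDs libraries and barely above the highest Blank library. Group means were 3.37 ± 1.33 CPM in CDs, 16.0 ± 13.1 CPM in Model and 1.93 ± 1.11 CPM in Blank (SD, n = 3 each). Adipoq rose in Model over Blank by 3.06 ± 0.78 on the log2 scale (SE, edgeR adjusted p = 0.0134), and without Model 1 by 2.27 (edgeR adjusted p = 0.0329). In CDs over Model the value was -2.23 ± 0.73 (SE), with overlapping groups, and -1.44 without Model 1.

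Leptin, encoded by Lep (ENSMUSG00000059201, chromosome 6, 29060219 to 29073876, plus strand), signals the size of fat stores to the brain. It was counted in 15, 3 and 1 reads in CDs libraries, 67, 14 and 45 reads in Model libraries, and 0, 4 and 4 reads in Blank libraries. These are levels of 0.960, 0.179 and 0.0735 CPM in CDs, 4.87, 0.665 and 3.02 CPM in Model, and 0, 0.274 and 0.295 CPM in Blank. Every Model library was above every Blank library, and CDs 1 was above Model 2. Counting alone leaves these low values wide: 14 reads in Model 2 have a 95% Poisson interval of 7.65 to 23.5 reads, and 0 reads in Blank 1 allow a level of up to 0.186 CPM, at 3 reads. Lep rose in Model over Blank by 3.86 ± 1.08 on the log2 scale (SE, edgeR adjusted p = 0.0192). Since Lep passed the filter on low counts only through the Model libraries and CDs 1, this call is no support. With no filter the value was 3.87 (edgeR adjusted p = 0.0197), which rests on the same low counts. The call was lost without Blank 1 (3.27, edgeR adjusted p = 0.0587) and without Blank 2 (4.26, edgeR adjusted p = 0.0521), and without Model 1 the value was 3.23 (edgeR adjusted p = 0.0459). CDs over Model was -2.75 ± 0.95 (SE), and -4.34 without CDs 1.

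Resistin, encoded by Retn (ENSMUSG00000012705, chromosome 8, 3705770 to 3710110, plus strand), is an adipokine that adipocytes supply in mice. Its level was 1.02, 1.32 and 0.515 CPM in CDs, 7.55, 2.09 and 5.30 CPM in Model, and 0.514, 0.686 and 3.03 CPM in Blank. All 3 CDs libraries lay below all 3 Model libraries, and Blank 3 lay above Model 2. CDs over Model was -2.35 ± 0.72 (SE). Model over Blank was 1.82 ± 0.70 (SE) and missed the threshold (edgeR adjusted p = 0.0592). It was called by DESeq2 (adjusted p = 0.0235) and by limma on log2 FPKM (adjusted p = 0.0361), and in edgeR without Model 2 (adjusted p = 0.0397) and without Blank 3 (3.03, adjusted p = 0.0122).

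Complement factor D, or adipsin, encoded by Cfd (ENSMUSG00000061780, chromosome 10, 79726687 to 79728489, plus strand), is a serine protease of the alternative complement pathway that fat secretes in large amounts. Its level was 18.5, 25.2 and 6.32 CPM in CDs, 61.4, 29.6 and 72.9 CPM in Model, and 2.83, 4.80 and 16.8 CPM in Blank. Model libraries were the highest without exception, and CDs 3 lay within the Blank range. Cfd rose in Model over Blank by 2.75 ± 0.71 on the log2 scale (SE, edgeR adjusted p = 0.0142). Without Blank 2 the call was lost (2.49, edgeR adjusted p = 0.0550), and without Blank 3 the value was 3.84 (edgeR adjusted p = 0.00627). The value of CDs over Model was -1.70 ± 0.67 (SE).

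**Figure D1:**
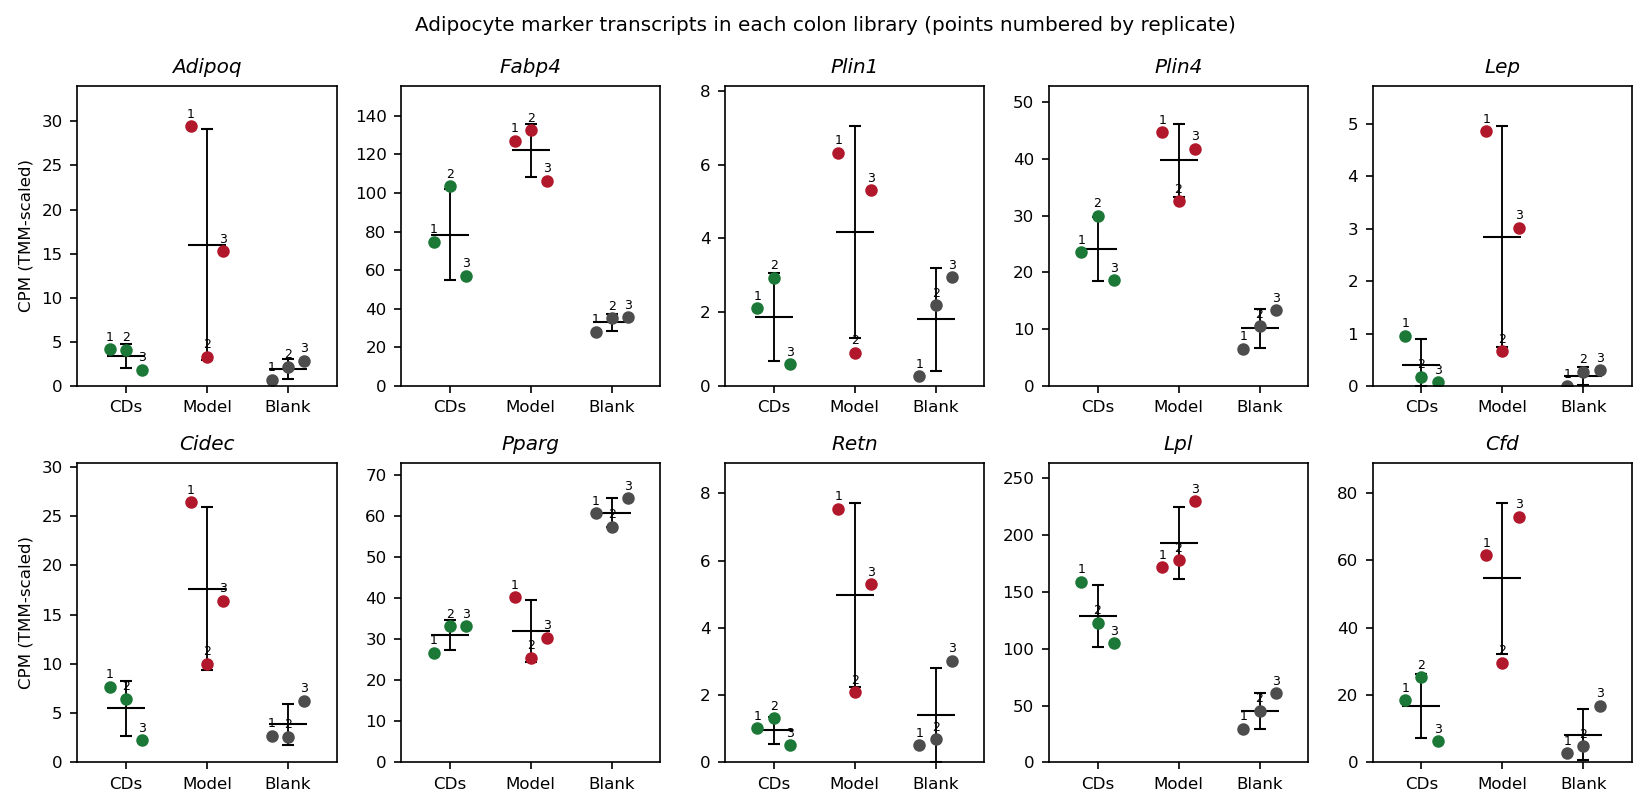
Level of each adipocyte marker in CPM after TMM scaling (vertical axes, from 0) in the 3 libraries of CDs, Model and Blank, with points numbered by replicate and mean ± SD beside them, the lower arm stopping at 0. Model 1 and Model 3 are the 2 highest libraries for Adipoq, Lep, Plin1, Cidec and Retn, Fabp4, Plin4 and Lpl separate all 3 groups, and Pparg is highest in Blank.

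Of the proteins that coat the lipid droplet, perilipin 1 (Plin1, ENSMUSG00000030546, chromosome 7, 79369966 to 79382651, minus strand) guards the stored triglyceride of adipocytes and controls access of lipases to it. Its level was 2.11, 2.93 and 0.588 CPM in CDs, 6.32, 0.902 and 5.30 CPM in Model, and 0.257, 2.20 and 2.95 CPM in Blank. The 3 groups overlapped, with Model 2 below CDs 1, CDs 2, Blank 2 and Blank 3. CDs over Model was -1.11 ± 0.87 (SE), and Model over Blank was 1.20 ± 0.88 (SE, edgeR adjusted p = 0.289).

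Cidec (ENSMUSG00000030278, chromosome 6, 113401595 to 113412721, minus strand) encodes a CIDE family protein that promotes fusion of droplets into a single large one. Its level was 7.68, 6.46 and 2.28 CPM in CDs, 26.4, 10.02 and 16.4 CPM in Model, and 2.70, 2.61 and 6.27 CPM in Blank. All Model libraries were above all CDs and all Blank libraries. Cidec rose in Model over Blank by 2.19 ± 0.54 on the log2 scale (SE, edgeR adjusted p = 0.0113), and CDs over Model was -1.67 ± 0.52 (SE).

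Perilipin 4 (Plin4, ENSMUSG00000002831, chromosome 17, 56407591 to 56416803, minus strand) coats small nascent droplets in fat and muscle. Its level was 23.6, 30.0 and 18.7 CPM in CDs, 44.7, 32.6 and 41.8 CPM in Model, and 6.56, 10.5 and 13.3 CPM in Blank. The 3 groups did not overlap, with CDs between the other two. Plin4 rose in Model over Blank by 1.97 ± 0.27 on the log2 scale (SE, edgeR adjusted p = 8.92e-04), and CDs over Model was -0.72 ± 0.26 (SE). Plin4 overlaps Hdgfl2 on the opposite strand in GENCODE release M21, and the labels' protocol describes no marking of strands, so some of its reads may belong to that gene.

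Lpl (ENSMUSG00000015568, chromosome 8, 69333143 to 69360100, plus strand) encodes lipoprotein lipase, which frees fatty acids from circulating triglyceride and is made by macrophages and muscle as well as fat. Its level was 159, 123 and 104.5 CPM in CDs, 171, 178 and 229.7 CPM in Model, and 29.6, 45.4 and 61.0 CPM in Blank. The groups were again separate, with CDs 1 close below Model 1. Lpl rose in Model over Blank by 2.09 ± 0.27 on the log2 scale (SE, edgeR adjusted p = 6.38e-04), and CDs over Model was -0.58 ± 0.26 (SE).

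Fabp4 (ENSMUSG00000062515, chromosome 3, 10269148 to 10273636, minus strand) encodes a fatty acid carrier of the cytosol that is abundant in adipocytes and also made by endothelium of small vessels and by macrophages. Its level was 74.7, 103.6 and 57.1 CPM in CDs, 127, 133 and 106 CPM in Model, and 28.0, 35.1 and 35.6 CPM in Blank. CDs 2 lay just under Model 3, and all Blank libraries lay below both other groups. Fabp4 rose in Model over Blank by 1.89 ± 0.21 on the log2 scale (SE, edgeR adjusted p = 4.12e-04), and CDs over Model was -0.64 ± 0.20 (SE).

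Pparg (ENSMUSG00000000440, chromosome 6, 115337912 to 115467360, plus strand), the receptor that drives adipocyte differentiation, is also abundant in the epithelium of the colon. Its level was 26.7, 33.1 and 33.2 CPM in CDs, 40.2, 25.4 and 30.4 CPM in Model, and 60.7, 57.3 and 64.3 CPM in Blank. Blank was the highest group for this gene, in contrast to the other 9, and the CDs and Model libraries were intermingled. Pparg fell in Model over Blank by 0.93 ± 0.17 on the log2 scale (SE, edgeR adjusted p = 0.00284). CDs over Model was -0.04 ± 0.17 (SE) and turned positive without CDs 1 (0.05) or without Model 1 (0.15). Pparg overlaps the antisense gene Gm44079 in GENCODE release M21, and the reads of the pair cannot be told apart without strand.

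Set side by side, the members gave 7 higher calls (6 without Lep), 1 lower call and 2 uncalled values in Model over Blank, with a median log2 fold change of 2.03 against -0.03 over all genes tested. Every Model library lay above every Blank library for 7 members, with Lep at low counts among them, as for 30% of all genes. Every Model library lay below for 1, Pparg, as for 31%. The Model libraries of that contrast also stand in the contrast the members were picked on, so the 2 sets of values share libraries. High Model values favour both the choice of a member and its higher call, so these counts are no independent support. In CDs over Model the median was -1.39, against 0.02 over all genes, and 44.8% of all genes had a negative value. Every CDs library lay below every Model library for 6 members, Retn, Cfd, Cidec, Plin4, Lpl and Fabp4, and 4.77% of all genes had that pattern. The choice of members used this contrast, so nothing is read from these shares.

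CDs colon was also set beside Blank colon, again without a test, since the CDs libraries were used to pick the members. For Lpl the log2 fold change of CDs over Blank was 1.51 ± 0.26 (SE), for Plin4 1.26 ± 0.27 and for Fabp4 1.25 ± 0.21, and for these 3 members every CDs library lay above every Blank library, a pattern held by 28.2% of all genes. Pparg was at -0.97 ± 0.17 (SE) with all CDs libraries below all Blank libraries, as in 25.9% of all genes. The other 6 overlapped between the 2 groups, with values of -0.52 ± 0.76 (SE) for Retn, 0.09 ± 0.90 for Plin1, 0.52 ± 0.54 for Cidec, 0.83 ± 0.79 for Adipoq, 1.05 ± 0.69 for Cfd and 1.12 ± 1.27 for Lep. The median over the 10 was 0.94, against 0.01 over all genes tested. Single libraries set the sign for some of these 6. Retn was at 0.68 without Blank 3, Lep at -0.47 without CDs 1, and Plin1 at -0.39 without CDs 2 and -0.43 without Blank 1. Cfd was at 2.14 without Blank 3.

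**Figure D2:**
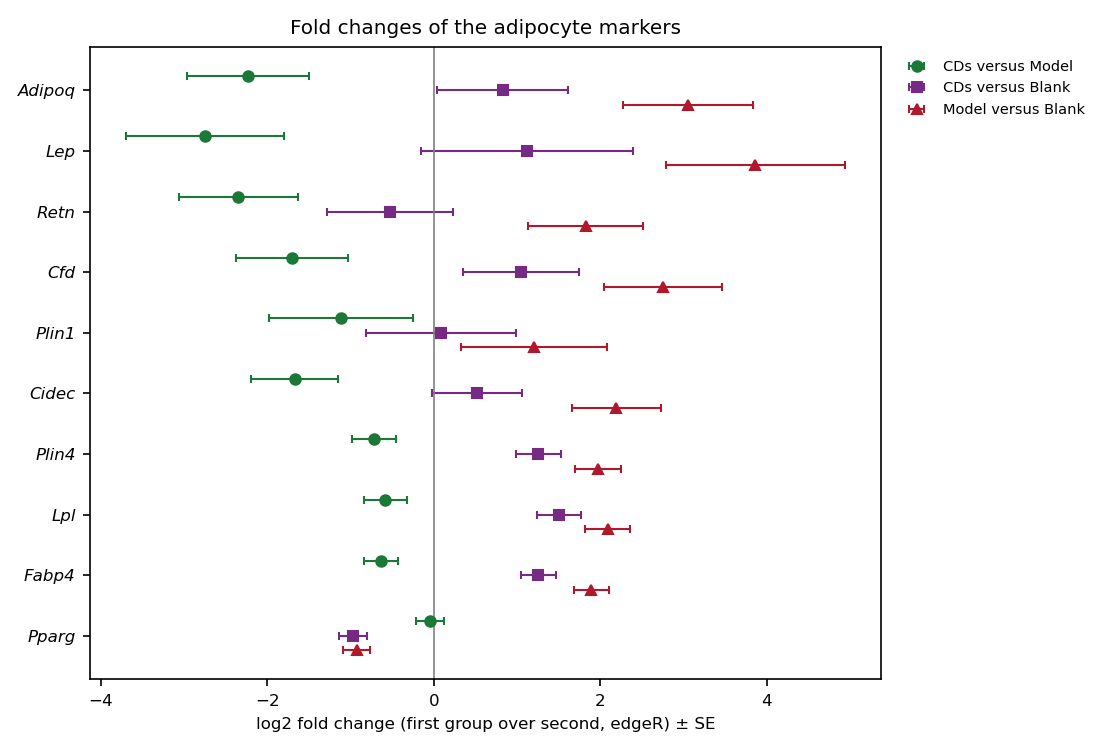
Log2 fold change ± SE from edgeR (horizontal axis) of each adipocyte marker (rows) for CDs over Model, CDs over Blank and Model over Blank. Model over Blank is positive for 9 of the 10 genes and negative for Pparg, and the CDs over Model values run from -2.75 for Lep to -0.04 for Pparg.

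The members differed in how far libraries of 1 group spread. In Model, the highest library exceeded the lowest 8.87-fold for Adipoq, 7.32-fold for Lep, 7.004-fold for Plin1, 3.62-fold for Retn, 2.64-fold for Cidec and 2.46-fold for Cfd. For Pparg, Plin4, Lpl and Fabp4 that ratio was only 1.58, 1.37, 1.34 and 1.25. Single libraries led or trailed for most members: Model 1 was the highest Model library for 7, Model 2 the lowest for 8, CDs 3 the lowest CDs library for 9 and Blank 3 the highest Blank library for all 10.

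Reads per Adipoq read are given here for Retn, Fabp4 and Lpl, and not for the other members. For Retn the ratio was 0.246, 0.319 and 0.280 in CDs, 0.256, 0.629 and 0.346 in Model, and 0.727, 0.3125 and 1.05 in Blank. For Fabp4 it was 17.95, 25.1 and 31.1 in CDs, 4.31, 39.9 and 6.96 in Model, and 39.6, 16.0 and 12.4 in Blank. Per read of Adipoq, Model 1 and Model 3 thus held the fewest Fabp4 reads of all 9 libraries. Model 2 and Blank 1 were highest and are not ranked, since Blank 1 had only 11 Adipoq reads (95% Poisson interval 5.49 to 19.7). Lpl showed the same low values in Model 1 and Model 3, with 38.2, 29.8 and 56.9 reads in CDs, 5.81, 53.4 and 15.0 in Model, and 41.9, 20.7 and 21.2 in Blank.

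Levels between genes were compared per length, on the scale of the deposited FPKM values, and neighbours are called apart where the ranges of their 3 libraries did not overlap. In CDs colon the order by mean FPKM was Cfd 18.7, Fabp4 17.9, Lpl 12.7 and Pparg 10.7, each overlapping with the next, then, apart from these, Plin4 3.89, Cidec 3.06 and Adipoq 2.52, and then, apart again, Retn 0.620, Plin1 0.417 and Lep 0.128. In Model colon Cfd stood first at 58.9 FPKM and apart from Fabp4 at 27.4, which was apart from Lpl at 18.5. From Lpl through Adipoq at 11.5, Pparg at 10.9, Cidec at 9.47 and Plin4 at 6.27 FPKM each gene overlapped with the next, and Retn at 3.13 was apart from Plin4 above and from Plin1 at 0.887 below. Lep at 0.841 FPKM overlapped with both Plin1 and Retn. In Blank colon Pparg led at 19.95 FPKM, apart from Cfd at 8.60 and Fabp4 at 7.10, which overlapped. From Lpl at 4.20 down through Cidec, Plin4, Adipoq, Retn and Plin1 to Lep at 0.0549 FPKM, each gene overlapped with the next. The deposited length of Fabp4, 4489 bases, is the whole span of the gene, whereas its longest coding transcript in GENCODE release M21 has 896 bases. With that kind of transcript length, Fabp4 moved to rank 1 over all 9 libraries, Lpl to 2, Cfd to 3 and Pparg to 4, against 2, 4, 1 and 3 with the deposited lengths.

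Other genes of adipocyte biology were followed in 7 lists with 74 genes, of which 68 passed the filter. In Model over Blank 26 rose and 13 fell, with a median log2 fold change of 0.26, against 24.5% and 19.6% of all genes. In CDs over Model 0 of the 68 were called and 46 had negative values, against 44.8% of all genes, with a median log2 fold change of -0.14, against 0.02.

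Among 11 transcription factors of the adipocyte program, 5 rose in Model over Blank and 1 fell. Cebpd and Cebpb, the early C/EBP factors of differentiation that also respond to inflammation, rose by 2.75 ± 0.25 and 3.10 ± 0.37 on the log2 scale (SE, edgeR adjusted p = 2.69e-04 and 4.96e-04). Ebf1, an early B cell factor that also acts in fat progenitors, rose by 1.23 ± 0.21 (SE, edgeR adjusted p = 0.00231). Cebpd had 75.4, 72.9 and 50.9 CPM in CDs, 79.7, 129.6 and 100.8 CPM in Model, and 19.7, 13.9 and 12.5 CPM in Blank, with all CDs libraries below all Model libraries (-0.64 ± 0.23, SE, edgeR adjusted p = 0.927).

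Of 10 genes of fatty acid and glucose uptake, 5 rose and 0 fell. Angptl4, a secreted inhibitor of lipoprotein lipase, had 35.8, 26.1 and 18.6 CPM in CDs, 33.3, 44.2 and 48.9 CPM in Model, and 1.80, 1.51 and 1.55 CPM in Blank. Its rise of 4.69 ± 0.29 on the log2 scale in Model over Blank (SE, edgeR adjusted p = 1.45e-04) was a larger fitted value than that of any of the 10 markers, and the difference was not tested. Fabp5, the fatty acid carrier of epidermis and macrophages, rose by 3.11 ± 0.26 (SE, edgeR adjusted p = 2.25e-04), and Cd36, a fatty acid transporter of the cell surface, by 1.08 ± 0.24 (SE, edgeR adjusted p = 0.00747).

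Of 13 genes of fatty acid and triglyceride synthesis, 2 rose and 4 fell. Fasn, which makes palmitate, fell by 1.08 ± 0.11 on the log2 scale, Acly, which supplies its acetyl-CoA, by 1.08 ± 0.14, and Acaca, which makes malonyl-CoA, by 0.79 ± 0.09 (SE, edgeR adjusted p = 3.36e-04, 7.34e-04 and 4.36e-04). All 3 genes are expressed in epithelium as well as in fat. Of the 10 tested genes of lipid droplets and lipolysis, 3 rose and 1 fell. Lipe, which encodes hormone-sensitive lipase, rose by 1.14 ± 0.18, the monoglyceride lipase gene Mgll by 0.74 ± 0.19, and G0s2, an inhibitor of the first lipase of the cascade, by 2.98 ± 0.51 (SE, edgeR adjusted p = 0.00164, 0.0136 and 0.00230). Without Model 2 the value of G0s2 was 2.37 (edgeR adjusted p = 0.00476).

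In the list of 10 other adipokines and receptors 5 rose and 2 fell. Rarres2, which encodes the chemoattractant chemerin, rose by 0.95 ± 0.16 on the log2 scale, Apln, which encodes apelin, by 1.39 ± 0.29, and Cdh13, the adiponectin-binding cadherin, by 1.08 ± 0.24 (SE, edgeR adjusted p = 0.00189, 0.00592 and 0.00739). Of 10 further adipocyte markers, 5 rose and 2 fell. Trarg1, a regulator of glucose transporter trafficking, had 3.90, 3.41 and 2.28 CPM in CDs, 5.52, 4.99 and 5.497 CPM in Model, and 1.99, 2.20 and 1.70 CPM in Blank, so that the 3 groups did not overlap. It rose in Model over Blank by 1.44 ± 0.24 (SE, edgeR adjusted p = 0.00208), whereas CDs over Model was -0.73 ± 0.23 (SE, edgeR adjusted p = 0.891). Pde3b, the phosphodiesterase through which insulin restrains lipolysis, rose by 1.06 ± 0.15 (SE, edgeR adjusted p = 0.00107). Lgals12, a galectin of lipid droplets, fell, with 4.54, 5.501 and 9.41 CPM in CDs, 14.0, 4.84 and 8.38 CPM in Model, and 38.6, 57.5 and 42.3 CPM in Blank (Model over Blank -2.36 ± 0.40, SE, edgeR adjusted p = 0.00212).

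Genes of brown and beige fat gave 4 that could be tested of 8, with 1 that rose and 3 that fell. Dio2, the deiodinase that activates thyroid hormone, had 31.6, 9.39 and 13.2 CPM in CDs, 22.1, 200.3 and 55.9 CPM in Model, and 0.964, 0.960 and 0.590 CPM in Blank. It rose by 6.77 ± 0.998 on the log2 scale in Model over Blank (SE, edgeR adjusted p = 0.00116), and by 5.52 without Model 2, its highest library (edgeR adjusted p = 0.00117). Cox7a1, a mitochondrial subunit of muscle and brown fat, fell by 2.13 ± 0.45 (SE, edgeR adjusted p = 0.00566). Ppargc1a, a coactivator of mitochondrial genes that is also made in epithelium, fell by 1.76 ± 0.58 (SE, edgeR adjusted p = 0.0367), a call that was lost without CDs 2, Model 2, Model 3 or any 1 Blank library (edgeR adjusted p = 0.0531 to 0.122).

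The genes whose profile was most like that of Adipoq were found by the root mean square distance between log2 CPM values, each gene centred on its own mean over the 9 libraries. Genes chosen in this way share the pattern of Adipoq over the groups in part by that choice. Their fold changes and calls below are therefore no separate support. Among 14920 genes the median distance was 1.49. Car3, a carbonic anhydrase abundant in fat and muscle, was nearest at 0.419, ahead of the other 9 markers. Its level was 31.0, 37.5 and 11.5 CPM in CDs, 114, 16.3 and 102 CPM in Model, and 6.94, 12.4 and 29.4 CPM in Blank. As with Adipoq, Model 1 and Model 3 stood far above Model 2, which was lower than CDs 1 and CDs 2. Car3 rose in Model over Blank by 2.25 ± 0.77 on the log2 scale (SE, edgeR adjusted p = 0.0416). That call was lost without CDs 2, Model 1, Model 3, Blank 1 or Blank 2 (edgeR adjusted p = 0.0557 to 0.121). Without Model 1, Model 3 and CDs 1 together the value was 0.011 (edgeR adjusted p = 0.992), and a fit of the Model and Blank libraries alone also missed the threshold (edgeR adjusted p = 0.0504), as did limma on log2 FPKM (adjusted p = 0.060 with 0.1 FPKM added before the log and 0.063 with 1 FPKM added). Without Blank 3 the value was 3.002 (edgeR adjusted p = 0.0340).

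Next among genes outside the 10 markers came Frmpd3 at 0.673, Cyp2e1 at 0.796, Klf15 at 0.811, Phkg1 at 0.853, Cd209a at 0.860, Lrrn1 at 0.879, Scnn1g at 0.9003, Acss3 at 0.913 and Cd209e at 0.914. With a smaller constant added before taking logs, 9 of these 10 nearest genes were shared. Of the 10, 2 were already in the lists of other adipocyte genes, Car3 and Klf15. Klf15, a Kruppel-like factor of fat and muscle metabolism, had 3.01, 3.95 and 1.69 CPM in CDs, 8.13, 6.88 and 13.8 CPM in Model, and 1.54, 3.02 and 2.36 CPM in Blank. It rose in Model over Blank by 2.05 ± 0.40 (SE, edgeR adjusted p = 0.00388). CDs over Model was -1.72 ± 0.39 (SE) with separate groups and was not called by edgeR (adjusted p = 0.891), but was called by DESeq2 (adjusted p = 0.0146). The members themselves ranked 2 for Lep, 3 for Cidec, 4 for Cfd, 6 for Retn, 7 for Plin1 and 10 for Plin4, then 24 for Lpl and 43 for Fabp4, and Pparg ranked 13055. With the smaller constant Lep ranked 12 and Cfd 2. The 9 libraries are shared by all these distances, and members that were picked for a common direction are near each other in part by that choice.

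**Figure D3:**
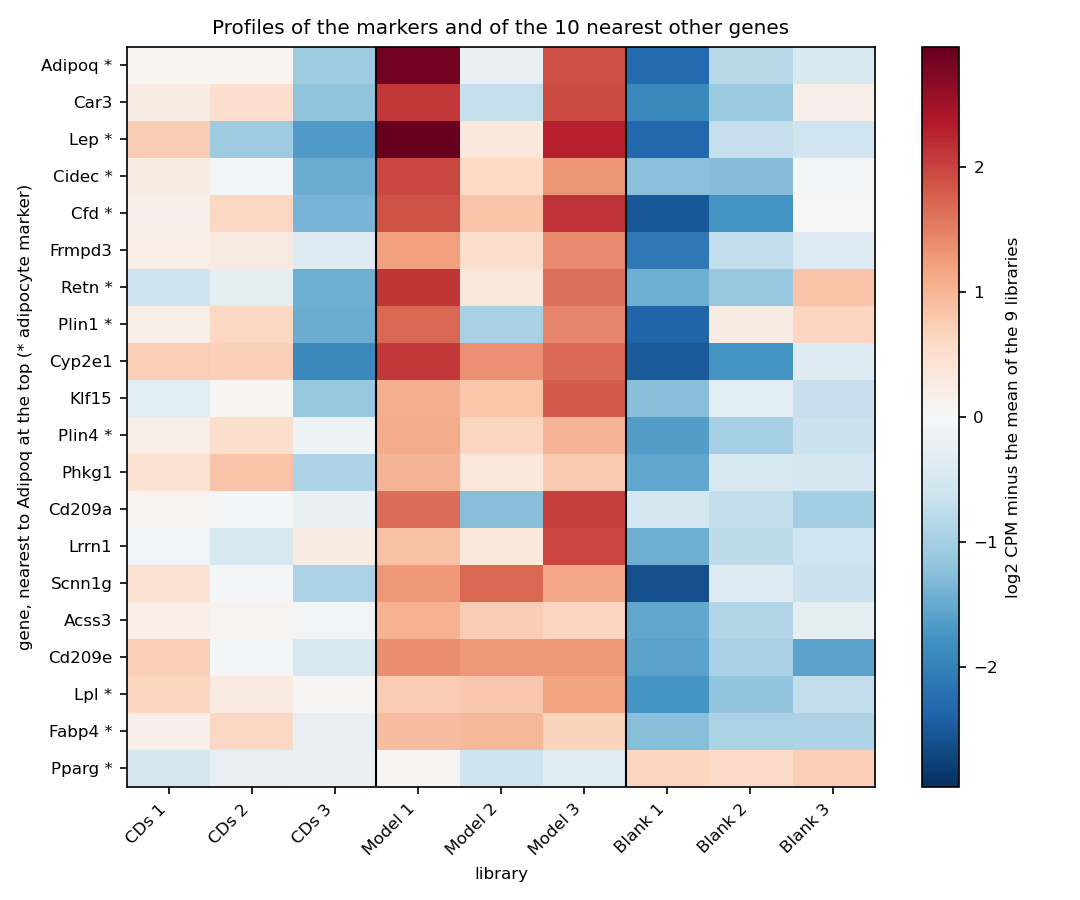
Log2 CPM of each gene (rows, nearest to Adipoq at the top, adipocyte markers with an asterisk) minus its mean over the 9 libraries (color) in the CDs, Model and Blank libraries (columns). Model 1 and Model 3 are the darkest red columns for Adipoq, Car3 and Lep, Model 2 is paler for these genes, and Pparg at the bottom runs the other way.

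Markers of other cells were summed beside the members. The summed level of the 10 adipocyte markers was 318, 330 and 225 CPM in CDs, 519, 415 and 526 CPM in Model, and 132, 161 and 207 CPM in Blank. Most of this sum was Lpl, Fabp4 and Pparg, which other cells also make, so it is no measure of adipocyte content. In Model 1, where Adipoq was highest, Lpl had 171 CPM and Fabp4 127 CPM, against 29.5 CPM of Adipoq. The 2 Model libraries with the highest Adipoq were also the 2 with the most pancreatic transcripts. Pnlip, the lipase that the exocrine pancreas secretes, had 20.7, 0 and 0 CPM in CDs, 1278, 0 and 11101 CPM in Model, and 0 CPM in each Blank library. CDs 1, the third library with pancreatic transcripts, was the highest CDs library for Adipoq and Lep, for Adipoq only barely. Of the 12 pancreatic genes, 8 were at 0 reads in Model 2, 7 in CDs 2 and CDs 3, and 6 to 7 in the Blank libraries. Model 2 also stood apart in neutrophil markers. These 8 genes summed to 968, 334 and 386 CPM in CDs, 253.5, 2246 and 482 CPM in Model, and 10.5, 7.68 and 7.38 CPM in Blank. Pancreatic transcripts were thus not the only difference between Model 2 and the other Model libraries, and the bearing of either on the members was not tested.

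Without Model 1, Model 3 and CDs 1, CDs 2 and CDs 3 stood against Model 2 alone, on the assumption that a lone library varies as much as libraries elsewhere. In CDs over Model, Adipoq was then at -0.14, Plin1 at 0.99, Pparg at 0.38, Lep at -2.27, Cidec at -1.18, Retn at -1.15, Cfd at -0.89, Lpl at -0.64, Fabp4 at -0.72 and Plin4 at -0.42 on the log2 scale. In Model over Blank 3 members stayed called higher: Fabp4 by 2.01, Lpl by 1.97 and Plin4 by 1.69 (edgeR adjusted p = 8.80e-04, 0.00147 and 0.00610). Adipoq was at 0.79, Lep at 1.80, Cidec at 1.38 and Cfd at 1.87, none of them called (edgeR adjusted p = 0.377, 0.173, 0.0964 and 0.114), while Pparg fell by 1.26 (edgeR adjusted p = 2.40e-04). Without Blank 2 and Blank 3, which leaves Blank 1 alone, Fabp4 (2.12), Plin4 (2.597), Lpl (2.70) and Cfd (4.27) stayed called higher in Model over Blank (edgeR adjusted p = 0.0300, 0.0276, 0.0276 and 0.0448). Adipoq (4.48), Cidec (2.70) and Pparg (-0.92) were then not called (edgeR adjusted p = 0.0881, 0.0853 and 0.0665). Lep was not called either (edgeR adjusted p = 0.104), and no fold change is given for it, since Blank 1 held 0 reads. The part of tissue from outside the colon wall in the differences of the members was not tested.

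The 8 markers of mesothelium, the cell layer over the gut and mesentery, summed to 54.2, 78.4 and 97.7 CPM in CDs, 34.3, 62.8 and 25.3 CPM in Model, and 11.3, 14.1 and 20.1 CPM in Blank. All Model sums were above all Blank sums, as for the adipocyte markers. CDs 2 and CDs 3 had the 2 highest sums, and CDs 1 lay below Model 2. All 8 markers had positive CDs over Model values, where 44.8% of all genes tested had negative ones, and 0 of the 8 were called by edgeR. CDs 3, lowest for 9 of the adipocyte markers within its group, had the highest mesothelial sum of all 9 libraries.

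Members such as Fabp4 and Lpl are also made in other cells. Markers of endothelium, macrophages and fibroblasts had higher sums in both DSS groups than in Blank, whereas sums of smooth muscle markers overlapped. The 8 endothelial markers summed to 352 to 473 CPM in CDs, 369 to 507 CPM in Model and 171 to 185 CPM in Blank, and 7 of 8 rose in Model over Blank. The 8 macrophage markers summed to 1091 to 1301 CPM in CDs, 1011 to 1566 CPM in Model and 273 to 327 CPM in Blank, and all 8 rose. Markers of preadipocytes and adventitial fibroblasts summed to 2500.2 to 3258 CPM in CDs, 2590 to 5513 CPM in Model and 876 to 994 CPM in Blank. Of these 8, 6 rose and 1 fell. Over all genes tested, 24.5% rose and 19.6% fell in Model over Blank. In CDs over Model 0 genes of these 3 lists were called by edgeR, with median log2 fold changes of -0.16, -0.0053 and -0.080. The 8 smooth muscle markers summed to 2421 to 5930 CPM in CDs, 2696 to 4033 CPM in Model and 2856 to 4039 CPM in Blank. Of these, 1 rose in Model over Blank. All 8 had positive CDs over Model values, where 44.8% of all genes tested had negative ones, with a median of 0.59 and 0 called by edgeR. Colonocyte markers, which bear on Pparg, summed to 4094 to 7943 CPM in CDs, 3661 to 6429 CPM in Model and 6007 to 7991 CPM in Blank. The part of these cells in the values of the members was not tested.

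**Figure D4:**
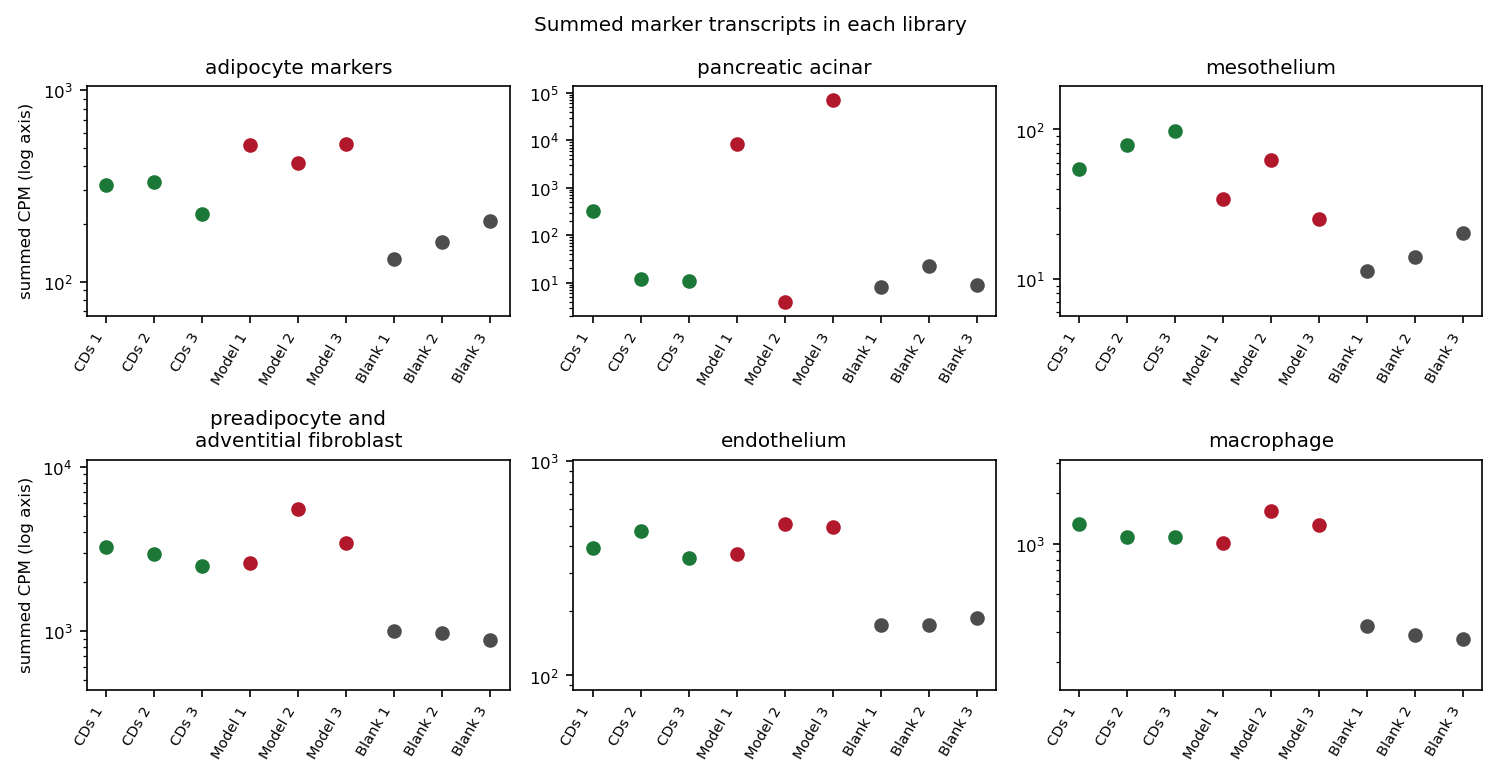
Summed CPM of marker lists (vertical log axes) in each CDs, Model and Blank library. The sum of adipocyte markers, most of it Lpl, Fabp4 and Pparg, is highest in Model. Pancreatic transcripts stand out in Model 1, Model 3 and CDs 1, and mesothelial markers peak in CDs 3. The fibroblast, endothelial and macrophage sums are lower in Blank than in both DSS groups.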

How the data were processed

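Colon RNA of 9 WT mice was sequenced in 3 groups of 3 libraries, grouped and numbered by their titles. Per the labels' protocols, messenger RNA was selected by its poly-A tail and reverse-transcribed from random primers. Per the submitters' processing notes, the tools were HTSeq 0.9.1, HISAT2 2.1.0 and fastp 0.22.0, while the build and strand setting were not given in the sources used here. Read counts and FPKM values per gene were deposited by the authors, per the file headers. In 100% of values the deposited FPKM equalled count over gene length and library total, to a relative tolerance of 1e-06, so FPKM adds no depth beyond the counts. Totals were 13868864 to 19940300 reads, and intervals and floors cover counting error only.

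The main test was the two-sided quasi-likelihood F test of edgeR 4.0.16 in R 4.3.3, fitted to the counts of the 9 libraries together with the group as the only term, after edgeR's expression filter and TMM scaling, with p adjusted by Benjamini and Hochberg over 14921 genes. The SE is the fold change over the square root of F. The procedure was tested on simulated counts. Alternatives used DESeq2 1.42.0, limma 3.58.1 on log2(FPKM + 0.1) or log2(FPKM + 1), other scalings, no filter and left-out libraries. Named genes were all 10 members, the 10 other genes nearest to Adipoq, and the 3 with the smallest p in Model over Blank from each list of other adipocyte genes. For lists of cell markers the rule took the 2 highest of each, but only Pnlip, Pbsn and Spink1 of these are named here. The other lists of cell markers are given as sums, except skeletal muscle and lymphoid follicle, which are not described. Other genes named were chosen after their values were seen. The distance to Adipoq used log2 CPM with a prior count of 2. Longest coding transcripts of GENCODE M21 (GRCm38) served as an alternative gene length, an alternative added after the data were seen. The members and lists were chosen with earlier results of these data known. With 3 libraries against 3, an exact permutation test of a single gene cannot go below p = 0.1 and was not used.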

Additional observations from a re-analysis of the deposited data

How the results depend on the processing

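Over 20 alternatives, of which 9 left out 1 library each, Model over Blank called 6574 genes, with 4405 to 7459 when a library was left out and 1536 without Blank 2 and Blank 3, which leaves 1 Blank library whose spread is borrowed from the other libraries. CDs over Model called 0 genes, 0 to 0 with a library left out, 50 with DESeq2 (5 higher and 45 lower) and 1241 without Model 1, Model 3 and CDs 1. CDs over Blank called 5309 genes, 3398 (without Blank 2) to 5540 with a library left out, and 465 without Blank 2 and Blank 3. Members called higher in Model over Blank numbered 7, with 5 to 8 when a library was left out, 3 without Model 1, Model 3 and CDs 1, and 4 without Blank 2 and Blank 3. The cause of these shifts was not tested.

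Tested values changed sign as follows. Without Model 1, Model 3 and CDs 1, Plin1 (-0.98) and Cd209a (-0.60) turned negative in Model over Blank, and in CDs over Model Cd209a (1.24), Car3 (0.60) and Lgals12 (0.61) turned positive and Ebf1 (-0.34) negative. With a library left out, Plin1 and Cd209a ran from 0.69 to 1.76 and from 1.63 to 2.68 in Model over Blank. In CDs over Model, Ebf1 ran from -0.14 to 0.15, Cd36 from -0.30 to 0.019, Rarres2 from -0.28 to 0.0064, Car3 from -2.01 to -1.14, Lgals12 from -0.83 to -0.02 and Cd209a from -1.96 to -0.90. Ebf1 was at -0.0025 with RLE scaling and -0.0027 with DESeq2. These genes had no called CDs over Model value, and the cause was not tested. Of 1839 single-gene fold changes under the alternatives, 1817 had the sign of the reported value, and 65 lost and 12 gained a call with that sign. Members had that sign in 199 of 200 values of Model over Blank, 196 of 200 of CDs over Model and 193 of 199 of CDs over Blank.

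Same-numbered libraries did not deviate together in all comparisons, so the numbers were not taken as pairs. Between Model and Blank, correlations were -0.0417 to -0.00836 for the same number and -0.0207 to 0.0447 for different numbers. Between CDs and Model they were -0.368 to 0.206 and -0.348 to 0.472. Between CDs and Blank the same-number values were all weakly positive, 0.0635 to 0.175, against -0.209 to 0.112 for different numbers. With the replicate block, 5672 genes were called in Model over Blank, 0 in CDs over Model and 4475 in CDs over Blank, and 7 members were called higher. Of the genes named, the block ended the Model over Blank calls of Ppargc1a, Car3, Phkg1 and Cd209a (edgeR adjusted p = 0.0799, 0.0892, 0.0601 and 0.0759). Depth limits Lep most, with 0 to 15 reads in the CDs and Blank libraries.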

Other observations

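Adig, which encodes a small protein of adipocytes, was near absent from all groups, with 1 to 12 reads in a library, and the brown fat gene Ucp1 had 0 to 9 reads. Dgat2, which completes triglyceride synthesis, rose in Model over Blank by 1.28 ± 0.23 on the log2 scale (SE, edgeR adjusted p = 0.00297), whereas 3 of the 4 genes of the same list that fell act in fatty acid synthesis. Itln1, which encodes intelectin, a product of intestinal goblet cells as well as of human fat, fell by 3.08 ± 0.99 (SE, edgeR adjusted p = 0.0325). Gpihbp1, the endothelial protein that carries lipoprotein lipase to the vessel lumen, rose by 1.35 ± 0.38 (SE, edgeR adjusted p = 0.0193). Its level was 3.77, 6.34 and 2.4996 CPM in CDs, 4.94, 6.88 and 5.70 CPM in Model, and 2.70, 2.74 and 1.40 CPM in Blank. These 5 genes were chosen after their values were seen.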
